A study of Mus musculus with 216 samples.

Results

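Keratin and keratin-associated protein genes were described here by the H3K9me3 domains that lie on them. The members were the 116 GENCODE vM21 genes whose symbol starts with Krt, of 55413 genes on chromosomes 1 to 19, X and Y. A domain was assigned to a member when it overlapped the gene body by at least 1 bp. This gave 26 genes with a domain and 25 domains, of 42890 domains on these chromosomes, because Krt90 and Krt75 share a domain. By symbol the members comprised 55 keratin genes, 58 Krtap genes and 3 genes that begin with the same letters but encode other proteins, namely Krtcap2, Krtcap3 and Krtdap.

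The series followed loss of H3K9me3 and of HP1β, a protein that binds this mark, in mouse embryonic stem cells of the line dTKO, using ChIP-seq. The labelled genotype was Suv39h1fl/fl; Suv39h2-/-; Setdb1fl/fl, which concerns 3 genes for H3K9 methyltransferases, and every sample carried it. Every sample, those at 0 h included, was labelled with auxin and dTAG13, which direct suitably tagged proteins to degradation and were used at 100 µg/ml and 0.5 µM. Chromatin was taken at 0, 1, 3, 12, 24 and 48 h, with 0 h as the baseline. The labels used here do not say which protein carried which tag, or whether the line is a single clone. There were 3 biological repeats per time, with each library sequenced in 3 runs, but the deposited domain table gives a single decay class per domain for all of them together. A class is 1 of 4 words, fast, intermediate, slow or residual. No value per library or time stands beside it, so no domain has a replicate error, the depth behind a class is unknown, and the shares are descriptions without a test. The labelled cell type could not be checked against markers, since no expression values were used here.

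Keratins are the intermediate filament proteins of epithelia, hair and nails, and a filament is built from pairs of a type I and a type II keratin. Keratin-associated proteins are small, cysteine-rich or glycine- and tyrosine-rich proteins that fill the space between keratin filaments in the hair shaft. The genes lie in dense arrays of related copies, type I on mouse chromosome 11, type II on chromosome 15, and Krtap genes on several chromosomes. H3K9me3 is laid down by the SUV39H enzymes and SETDB1 and marks compacted, mostly silent chromatin, most of it repeats. Apart from Krt8, Krt18 and a few other keratins of simple epithelia, these genes are used in differentiated epithelium and hair.

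The decay classes of the keratin domains differed by chromosome. In the chromosome 11 cluster, 12 of 13 member domains (92.3%) were in the residual class, against 21.7% of the 2267 other domains of chromosome 11. None of the 13 was intermediate, against 38.3% of those other domains. In the chromosome 15 cluster, 8 of 11 member domains (72.7%) were intermediate, against 74.3% of the 1511 other domains of chromosome 15, and 2 (18.2%) were residual, against 1.99%. The residual share of the chromosome 11 keratin domains was thus 70.6 percentage points above that of their chromosome, whereas the intermediate share of the chromosome 15 ones was near the share of theirs. Over all member domains 14 were residual (56%), 9 intermediate (36%), 2 slow (8%) and 0 fast. Over all 42865 other domains 4.54% were residual, 71.5% intermediate, 20.5% slow and 3.49% fast.

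The share of members with any domain did not stand out. It was 22.4% (26 of 116), against 23.4% of the 21825 other protein-coding genes. This average hid a contrast between the families. Of the keratin genes 24 of 55 (43.6%) carried a domain, and of the Krtap genes 2 of 58 (3.45%). Gene length differs between these sets, with a median of 6594 bp for keratins and 885.5 bp for Krtap genes, against 17622 bp for other protein-coding genes, and a longer gene has more bases to meet a domain. Per base, 14.8% of keratin gene sequence and 4.30% of Krtap sequence lay inside domains, against 3.41% of the sequence of other protein-coding genes.

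Promoter sequences inside domains of either class found on chromosome 11 members are shown first. The promoters below are RefSeq windows of GRCm38.p6 that run from 250 bases before to 50 bases after the transcript start, printed on the strand of the gene. They belong to hair keratins Krt34 and Krt31, whose domains were residual, and to Krt32, a hair keratin in the only slow domain on a chromosome 11 member. All 3 windows lay wholly inside the domain. Capitals mark TATAAA, the core promoter element to which TBP binds.
Krt34 promoter, chr11:100041505-100041804, minus strand: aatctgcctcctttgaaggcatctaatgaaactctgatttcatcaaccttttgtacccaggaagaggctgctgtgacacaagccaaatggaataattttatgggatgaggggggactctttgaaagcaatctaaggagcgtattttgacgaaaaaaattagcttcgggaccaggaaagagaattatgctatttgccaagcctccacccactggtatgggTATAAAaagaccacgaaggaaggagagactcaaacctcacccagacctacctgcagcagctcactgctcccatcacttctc
Krt31 promoter, chr11:100050502-100050801, minus strand: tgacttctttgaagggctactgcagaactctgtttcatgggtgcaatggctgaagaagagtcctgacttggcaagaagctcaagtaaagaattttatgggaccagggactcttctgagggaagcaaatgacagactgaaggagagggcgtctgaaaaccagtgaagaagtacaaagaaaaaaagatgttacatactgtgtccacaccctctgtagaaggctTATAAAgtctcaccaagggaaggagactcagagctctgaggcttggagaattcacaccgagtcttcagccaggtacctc
Krt32 promoter, chr11:100088220-100088519, minus strand: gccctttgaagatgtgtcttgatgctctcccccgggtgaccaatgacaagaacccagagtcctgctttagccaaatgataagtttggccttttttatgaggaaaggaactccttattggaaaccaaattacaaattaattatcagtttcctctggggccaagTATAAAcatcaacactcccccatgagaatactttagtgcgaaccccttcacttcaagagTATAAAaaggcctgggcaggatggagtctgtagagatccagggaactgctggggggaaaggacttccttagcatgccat

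In these windows TATAAA began 31 bases before the start at Krt34, 29 at Krt31 and, for the nearer of its 2 copies, 29 at Krt32. These windows were chosen because they hold the element. The residual windows of Krt36, Krt9 and Krt13 lack it, and at Krtap16-1, also residual, it began 44 bases before the start. RefSeq promoters were matched by symbol for 90 of 116 members, which gave 92 windows. TATAAA, searched on both strands, was present in 67.4% of member windows, against 13.6% of all 32851 windows in the table. Of the 10 member windows that overlapped a domain, 5 held it. At Krtap31-2 only 40 bases of the window lay in the domain, and TATAAA was outside them. Krt15, Krt14, Krt16, Krt42 and Krt1 have their 5′ end in a domain but no window among the 10. The element TGANTCA, the shape of site bound by AP-1 factors, was found on either strand in 14.1% of member windows, against 7.8% of all windows, and in 3 of the 10 that overlapped a domain. These 3 were the Krtap31-2 window, where TGANTCA too lay outside the domain, and both windows of Krt13, a keratin of mouth and oesophagus lining. The second Krt13 window is shown with TGANTCA in capitals.
Krt13 promoter, chr11:100121517-100121816, minus strand: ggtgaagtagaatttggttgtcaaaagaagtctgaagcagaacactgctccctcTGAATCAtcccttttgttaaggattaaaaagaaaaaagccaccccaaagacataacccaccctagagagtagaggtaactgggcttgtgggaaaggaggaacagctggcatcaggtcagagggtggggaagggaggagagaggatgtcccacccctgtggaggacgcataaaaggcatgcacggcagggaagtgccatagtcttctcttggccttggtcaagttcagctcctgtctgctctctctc

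The chromosome 11 cluster holds 50 members over 1037 kb and fell into 3 stretches. In the first, 12 keratin genes run from Krt222 to Krt40, among them the inner root sheath keratins and Krt10, the type I keratin of suprabasal epidermis. None of the 12 carried a domain. The stretch held a single domain, intermediate and on the pseudogene Gm12358 between members, or 3.22 domains per Mb. Krt10 lay 79.0 kb from the nearest domain. In the middle stretch, 2 of 23 Krtap genes carried a domain. In the last stretch, which runs over 259 kb from Krt33a to Krt42, 11 of 15 keratin genes carried a domain, 10 residual and 1 slow. Its density of 54.1 domains per Mb compares with 18.7 per Mb for chromosome 11 as a whole. Neighbouring genes of 1 array are not independent observations, so the 12 residual domains describe a stretch of the chromosome rather than 12 separate cases.

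**Figure D1:**
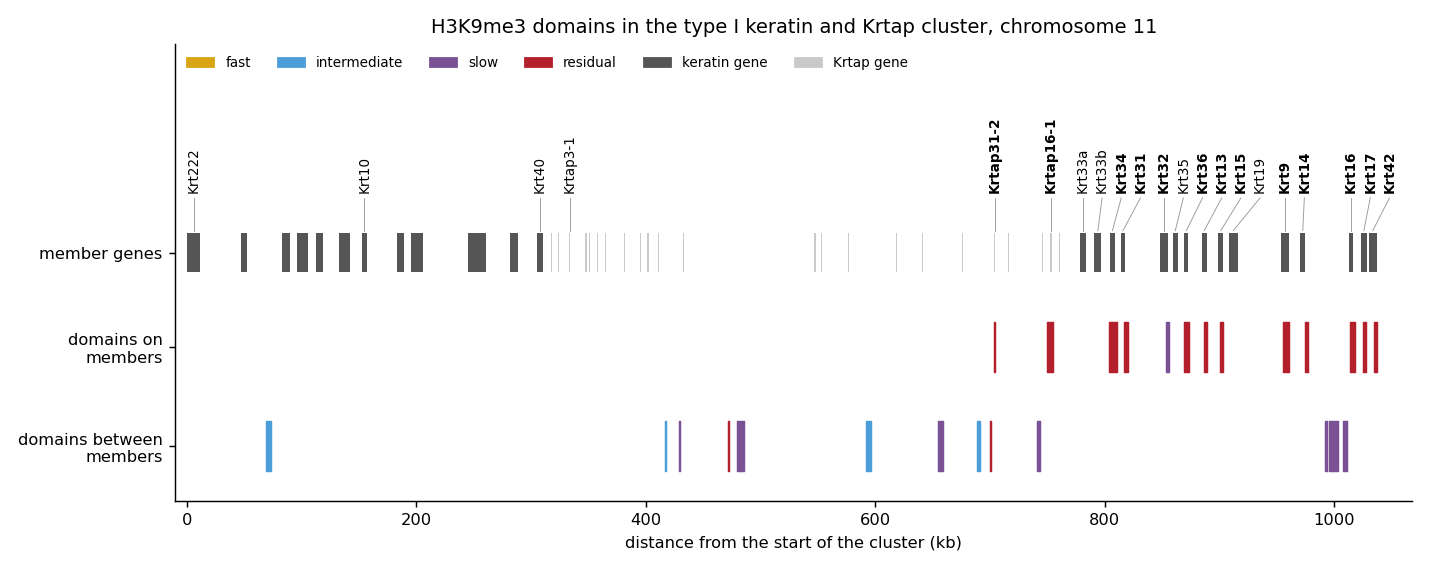
Member genes (top), domains on members (middle) and domains between members (bottom) along the chromosome 11 cluster, with the horizontal axis in kb from the start of the cluster and colour giving the decay class; genes named in bold carry a domain. Of the 12 residual domains on members, 10 sit on keratins at the right end of the cluster and 2 on Krtap genes to their left. The 12 keratins from Krt222 to Krt40 at the left end carry no domain.

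The hair keratins of the last stretch had some of the most fully covered genes. The domain on Krt34 was 6.6 kb long (chr11:100036501-100043100) and covered 100% of the gene, all 7 exons included. Krt36, a keratin of hair, nail and tongue papillae, was also covered over 100% of its length by a residual domain of 4.2 kb (chr11:100101601-100105800). On Krt31 a residual domain of 4.2 kb (chr11:100049101-100053300) covered 37.1% of the gene, from exon 1 to exon 3, and reached 2749 bases upstream. These 3 domains include both gene and upstream sequence, in differing parts. The slow domain on Krt32 (chr11:100086301-100088700) spanned 2.4 kb and covered 26.1% of the gene, with exons 1 to 3 and 474 bases upstream. Krt33a, Krt33b and Krt35, the other hair keratins of this stretch, carried no domain, and the nearest ones lay 20.3, 6.63 and 3.49 kb away.

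Keratins of stratified epithelia in the same stretch were also residual. Krt9, the keratin of palm and sole skin, carried a domain of 5.1 kb (chr11:100188301-100193400) over 76.5% of the gene and 99.2% of its coding sequence. Krt15 and Krt14, type I keratins of the basal epidermal layer, differed in coverage, with 60.6% of Krt15 (chr11:100133401-100136100) and 14.8% of Krt14 (chr11:100206901-100210200) in a domain. The Krt14 domain lay mostly upstream, over 2652 bases before the gene and exon 1 only. On Krt13 the domain covered 53.4% of the gene (chr11:100119301-100122300).

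Krt16 and Krt17 are induced in wounded or stressed epidermis and are expressed in hair follicle and nail. The Krt16 domain (chr11:100246501-100250700) covered 85.4% of the gene and the Krt17 domain (chr11:100258201-100260600) 49.9%, starting 429 bases inside it. Krt42, a type I keratin, had a domain over 33.9% of its length (chr11:100267501-100269900). All 3 were residual. Krt19, a keratin of simple epithelia that lies between Krt15 and Krt9, carried no domain, and the nearest one, residual, was 4.71 kb away.

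Only 2 Krtap genes of 58 carried a domain, both residual and both in the chromosome 11 cluster. Krtap16-1 was covered whole by a domain of 4.8 kb (chr11:99982801-99987600) that extended to both sides of its single exon. The domain on Krtap31-2 was the shortest on any member, at 0.9 kb (chr11:99936301-99937200), and covered 96.3% of the gene and its whole coding sequence. The other 21 Krtap genes of this stretch had none, with the nearest domain between 2.12 and 98.6 kb away.

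The Krtap clusters on other chromosomes carried no domain on any gene with a Krtap symbol. The cluster on chromosome 16 has 25 genes of the hair shaft over 960 kb, that on chromosome 7 has 5 genes of the Krtap5 family over 130 kb, and that on chromosome 10 has 3 genes over 117 kb. Domains did lie between their Krtap genes. Of these domains, 4 on chromosome 16, 2 on chromosome 7 and 2 on chromosome 10 overlapped another gene. Slow domains overlapped the protein-coding genes Gm10061 and Gm7735 on chromosome 16, Gm7579 on chromosome 7 and Gm9507 on chromosome 10. Members were taken by symbol, so whether such genes belong to the Krtap family was not examined. Between Krtap genes lay 18 domains in the chromosome 16 cluster, 12 intermediate and 6 slow. The chromosome 7 cluster held 6, 4 intermediate and 2 slow, and the chromosome 10 cluster 2, 1 intermediate and 1 slow. None of these 26 was residual or fast. Both classes are also rare on 2 of the chromosomes, with 1.74% residual and 3.06% fast among other domains of chromosome 16. Among those of chromosome 7 the shares were 2.75% and 2.67%. Within 5 Mb of the cluster, however, 11.2% of 116 other domains of chromosome 7 were residual, against 1.4% of 143 on chromosome 16. For chromosome 10 no such shares were computed. The chromosome 16 cluster held 18.7 domains per Mb, against 14.6 for chromosome 16. Its genes are short, with a median of 601 bp and 31880 bases in all, and 18.6% of the other genes of chromosome 16, at a median of 3886.5 bp, carried a domain. Domains between its Krtap genes had a median soft-masked share, that is sequence annotated as repeat, of 74.2%.

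On chromosome 11, domains on members and domains between members differed in class. Domains on members were residual in 92.3% of cases, against 15.4% of the 13 domains between members, of which 4 were intermediate, 7 slow and 2 residual. Of the 13 between members, 5 overlapped another gene, among them the protein-coding Gm11555 in an intermediate domain. Median soft-masked share was 9.83% on members and 39.5% between them. All 13 on members, against 1 between them, lay within 1 kb of the start of a protein-coding transcript. The cause of the contrast in class was not tested. Within the last stretch, 10 of 11 domains on members were residual, and all 3 domains between members were slow. These 3 lay between Krt14 and Krt16, and 2 of them covered the pseudogenes Gm11597 and Gm11598. Over the whole span of the cluster, members and the sequence between them together, 14 of 26 domains (53.8%) were residual.

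Domains of chromosome 11 lay at the 5′ ends of their genes. All 13 member domains overlapped a promoter window, that is 1 kb to either side of the start of a protein-coding transcript, against 7.41% of other domains of chromosome 11 and 37.1% of other domains on an exon of a coding gene. The annotated 5′ end itself was inside the domain in 11 of 13 genes, the exceptions being Krtap31-2, by 10 bases, and Krt17. Exon 1 was touched in all 13. On chromosome 15 the domains were placed further along the gene. Of its 11 member domains 4 overlapped such a window, and the 5′ end of the gene was inside the domain for Krt90 and Krt1 only. The domains on Krt72 and Krt79 held the start of a shorter transcript annotated as non-coding. Gene length differs between these sets, and a domain on a short gene has less room to lie away from its start. Median length was 973 bp in the Krtap stretch and 4387 bp in the last stretch of chromosome 11. It was 7795 bp in the chromosome 15 cluster and 14368 bp for other protein-coding genes of chromosome 11. The part played by length was not tested.

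**Figure D2:**
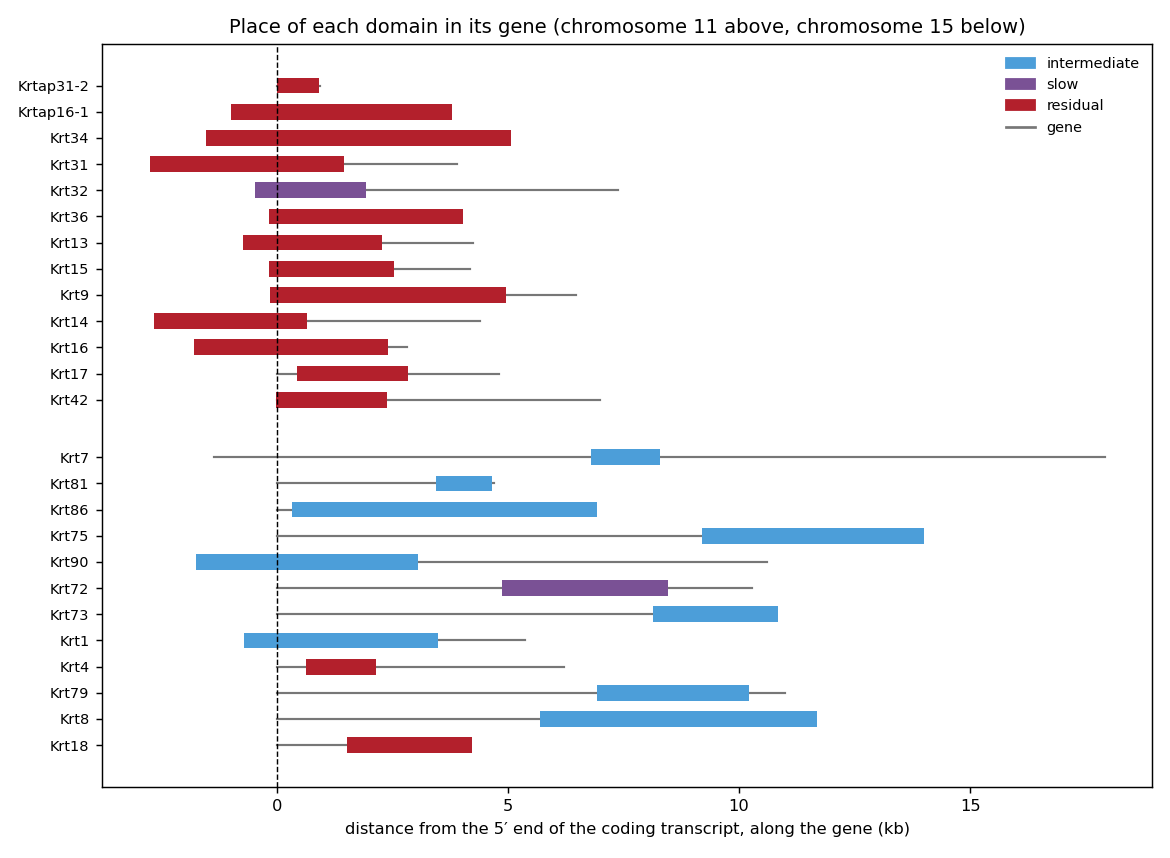
Each member domain (coloured bar, by decay class) and its gene (grey line) on the chromosome 11 and 15 clusters, with the horizontal axis in kb from the 5′ end of the coding transcript, positive into the gene; the shared domain is drawn for both Krt75 and Krt90. Domains of chromosome 11 start at or upstream of the 5′ end except at Krtap31-2 and Krt17, whereas those of chromosome 15 mostly begin inside the gene.

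Because the chromosome 11 domains are gene-end domains, other domains of like position are a closer comparison. The 92.3% residual share of keratin domains compares with 58.9% of 168 other promoter domains of chromosome 11 and with 53.3% of 353 other domains on an exon of a coding gene. When such other domains were also limited to those with less than 20% soft-masked sequence, 76.9% of 108 promoter domains and 70.5% of 234 exon domains were residual. Within 5 Mb of the cluster the share was 35.5% of 152 other domains. The keratin share was above each of these, but by 15.5 percentage points for promoter domains with little repeat, against 70.6 points for all other domains. With 13 domains, a difference of 15.5 points is 2 domains.

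**Figure D3:**
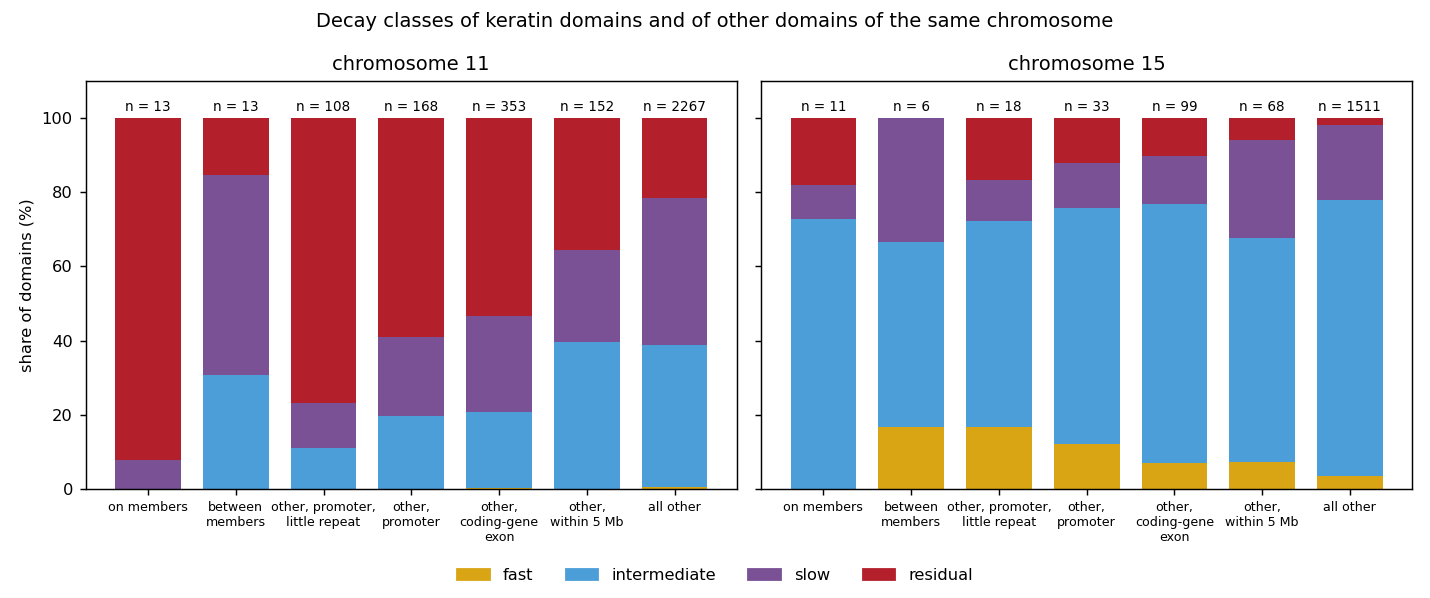
Share of domains in each decay class (per cent, stacked to 100) on chromosome 11 (left) and chromosome 15 (right), for domains on members, domains between members, and other domains of the same chromosome chosen by position or repeat content; n is the number of domains. The residual share of chromosome 11 is 92.3% on members, 76.9% at other promoters with little repeat and 21.7% over all other domains.

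The chromosome 15 cluster holds 27 members over 685 kb, 26 type II keratins and Krt18, a type I gene. Of these 12 carried a domain, 9 genes in intermediate domains, Krt72 in a slow domain, and Krt4 and Krt18 in residual ones. The density was 24.8 domains per Mb, against 14.6 for chromosome 15. The 18.2% residual share of member domains compares with 12.1% of 33 other promoter domains of chromosome 15 and 10.1% of 99 other exon domains. For other exon domains with little repeat the share was 16% of 50, so the residual share of this cluster was near that of domains of like position and sequence.

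**Figure D4:**
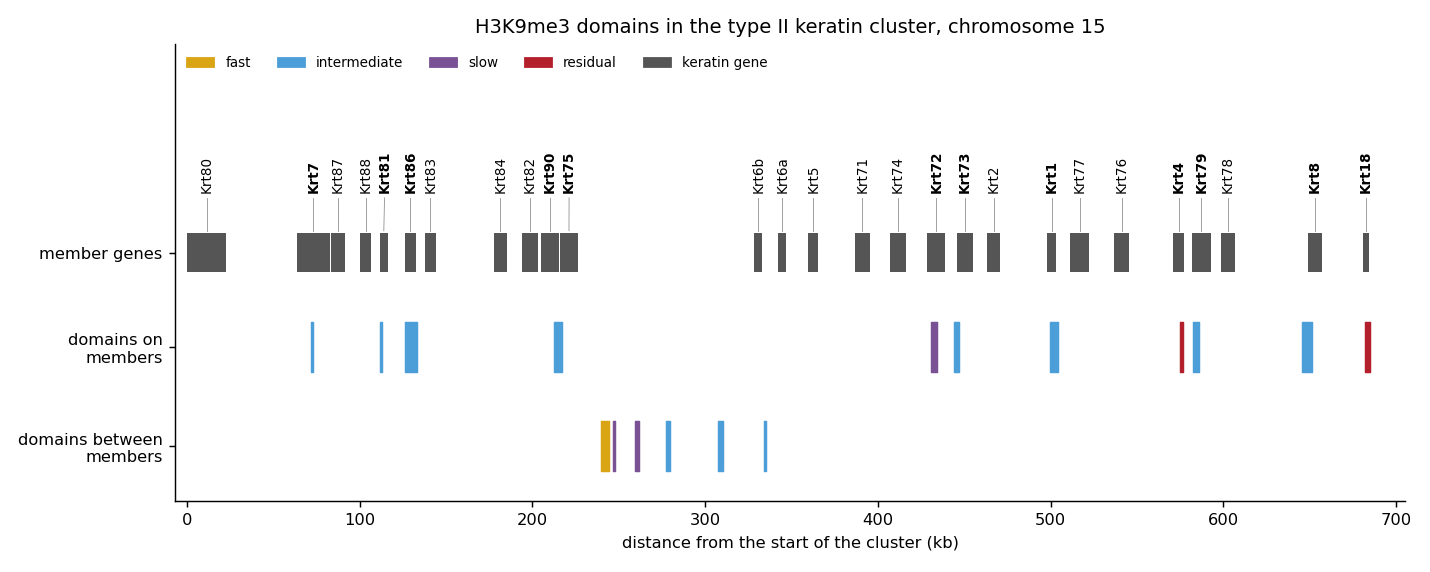
Member genes (top), domains on members (middle) and domains between members (bottom) along the chromosome 15 cluster, with the horizontal axis in kb from the start of the cluster and colour giving the decay class; genes named in bold carry a domain. Intermediate domains are spread over the cluster, and the 2 residual domains on members lie on Krt4 and Krt18 in its last part.

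Krt86 and Krt81, hair keratins of chromosome 15, were in intermediate domains. Krt86 had the widest coverage of the cluster, with a domain of 6.6 kb (chr15:101473801-101480400) over 95.04% of the gene. Krt81, its close paralogue, carried a domain of 1.2 kb (chr15:101459101-101460300) over 25.6% of its length, from exon 7 to exon 9. The genes Krt90 and Krt75, the keratin of the companion layer of the hair follicle, shared a domain of 4.8 kb (chr15:101559901-101564700), which covered 28.8% of Krt90 with its 5′ end and 12.8% of Krt75 at its 3′ end. The shared domain overlapped no coding base of Krt75. Krt73, an inner root sheath keratin, had 9.88% of its length in a domain, at its last exon (chr15:101791501-101794200).

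Krt72, another inner root sheath keratin, carried the only slow domain on a member of this cluster, 3.6 kb over 35.0% of the gene, from exon 4 to exon 7 (chr15:101778001-101781600). Its centre is shown because it holds a short tandem array. A word of 12 bases, in capitals, occurs 8 times in 300 bases, with a median spacing of 26 bases, and 0 of these bases are coding.
Krt72 domain centre, chr15:101779651-101779950, minus strand: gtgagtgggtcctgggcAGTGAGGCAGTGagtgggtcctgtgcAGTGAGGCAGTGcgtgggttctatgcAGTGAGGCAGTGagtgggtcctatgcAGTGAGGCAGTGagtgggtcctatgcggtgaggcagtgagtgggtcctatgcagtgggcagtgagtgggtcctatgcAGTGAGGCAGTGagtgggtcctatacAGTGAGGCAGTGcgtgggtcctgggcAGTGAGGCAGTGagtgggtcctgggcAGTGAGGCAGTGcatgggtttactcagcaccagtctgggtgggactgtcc

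Krt8 and Krt18, which pair in simple epithelia and are the keratins of the early embryo, did not share a class. Krt8 had an intermediate domain of 6.0 kb over 27.0% of the gene, at its 3′ part from exon 5 to exon 9 (chr15:101992801-101998800). Krt18 had a residual domain of 2.7 kb over 60.5% of the gene, from exon 3 to its last, exon 7 (chr15:102029701-102032400). In neither gene was the 5′ end in the domain. Krt7, also a keratin of simple epithelia, had an intermediate domain over 7.78% of its length (chr15:101419201-101420700).

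For the epidermal pairs, Krt14 was in a residual domain and Krt5 carried none, with the nearest domain 24.2 kb away. Conversely Krt1 carried an intermediate domain of 4.2 kb over 65.1% of the gene and its 5′ end (chr15:101847301-101851500), and its partner Krt10 had none. Krt4 pairs with Krt13 in the lining of mouth and oesophagus, and both carried residual domains. That of Krt4 was 1.5 kb long (chr15:101922601-101924100), over exon 2 and 24.2% of the gene. Krt79, its neighbour, expressed in sebaceous gland and hair follicle, was intermediate over 30.0% of its length (chr15:101930101-101933400). Between members of the cluster lay 6 further domains, 1 fast, 3 intermediate and 2 slow, the fast one on the pseudogene Gm5476.

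Outside the clusters lay 6 members, and 1 carried a domain. This was Krt8-ps, a pseudogene of Krt8 on chromosome 7, whole inside an intermediate domain of 4.2 kb (chr7:23354701-23358900). Krtcap2, Krtcap3, Krtdap, Krtap28-10 and Krtap28-13 had none.

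In sequence the member domains were alike whatever their class. Of 25, 24 had less than 20% soft-masked bases, the exception being Krt8-ps at 31.4%. The median was 9.83%, against 39.2% for other domains of chromosome 11 and 69.1% for those of chromosome 15. Median GC content was 51.5%, against 44.8% and 42.9% for those same other domains. All member domains lie on exons, and other exon domains were closer to them, with medians of 13.1% soft-masked and 49.6% GC on chromosome 11 and of 19.6% and 46.8% on chromosome 15. The 12 residual member domains of chromosome 11 had a median of 9.48% soft-masked and the 8 intermediate ones of chromosome 15 a median of 8.31%. These member domains thus differed in class at a like repeat content, and the cause was not tested. They also differed in position, with 13 of 13 member domains of chromosome 11 and 4 of 11 of chromosome 15 at a promoter. The residual share of other domains was 21.7% on chromosome 11 and 1.99% on chromosome 15. Among other domains of chromosome 11, residual ones also held less repeat, with a median of 13.04%, against 47.4% for intermediate ones.

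**Figure D5:**
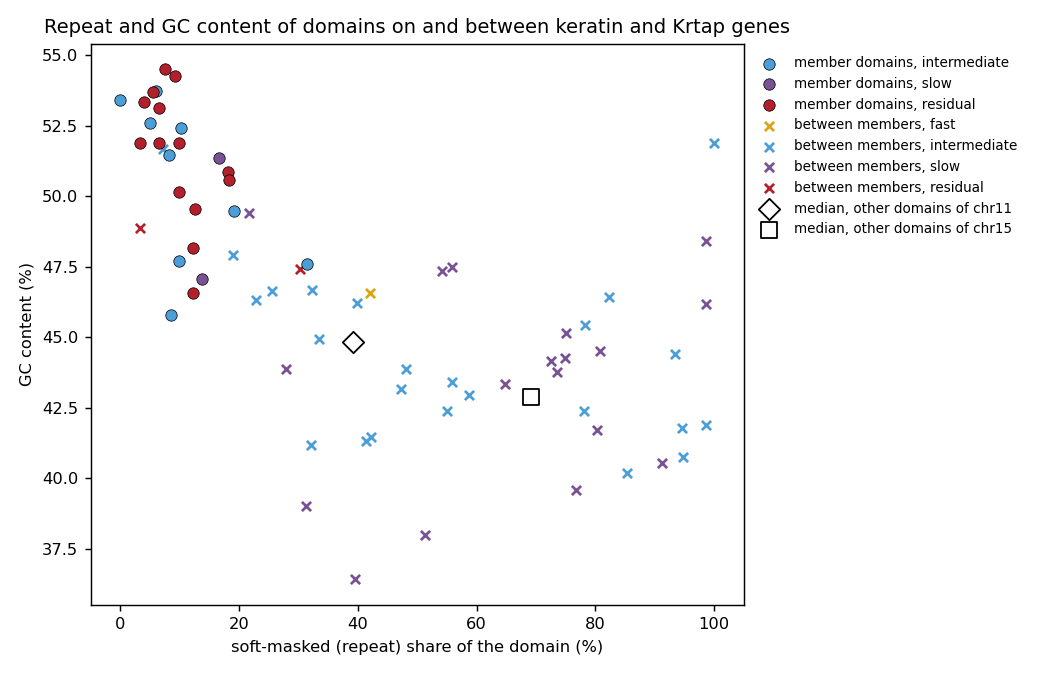
Soft-masked share (horizontal axis, per cent) and GC content (vertical axis, per cent) of each domain on a member (circles) and between members of a cluster (crosses), coloured by decay class, with the medians of other domains of chromosomes 11 and 15 as open symbols. Member domains of all 3 classes lie together at the left, at a soft-masked share of at most 31.4%.

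The centre of the Krt9 domain shows this kind of sequence, with an exon of 162 coding bases, in capitals, between introns.
Krt9 domain centre, chr11:100190701-100191000, minus strand: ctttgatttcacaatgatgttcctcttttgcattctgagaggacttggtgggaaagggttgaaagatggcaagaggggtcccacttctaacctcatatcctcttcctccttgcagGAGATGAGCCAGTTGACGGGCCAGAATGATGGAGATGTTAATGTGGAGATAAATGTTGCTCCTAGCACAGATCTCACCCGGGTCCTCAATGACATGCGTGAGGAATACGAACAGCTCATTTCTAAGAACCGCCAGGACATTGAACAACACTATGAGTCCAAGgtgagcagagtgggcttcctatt

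Keratin genes arose by duplication, and a read from near-identical copies cannot be placed with certainty. A run of 31 bases was unique in the genome at a median of 97.6% of positions sampled in the member domains. It was unique at 57.1% of positions in the Krt16 domain, 59.5% at Krt8-ps, 66.7% at Krtap31-2 and 77.3% at Krt86, so these 4 domains hold more sequence that occurs elsewhere too. The labels and files used here do not say how the authors placed such reads. In 89.5% of its length the Krt16 domain, residual, aligned elsewhere in the keratin clusters, the best match being 93.7% identical over 1262 bases to the pseudogene Gm11597, which lies in a slow domain. The longest identical run between them had 281 bases and holds an exon, in capitals.
Krt16, chr11:100246992-100247272, minus strand, also at chr11:100229596-100229876 in Gm11597: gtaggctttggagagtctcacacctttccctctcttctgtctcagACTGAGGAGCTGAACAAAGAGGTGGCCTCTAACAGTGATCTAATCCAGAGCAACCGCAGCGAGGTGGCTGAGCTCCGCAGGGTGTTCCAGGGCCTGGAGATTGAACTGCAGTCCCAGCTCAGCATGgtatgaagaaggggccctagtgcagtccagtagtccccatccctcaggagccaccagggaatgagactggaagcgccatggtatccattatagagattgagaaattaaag

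The copies of other member domains carried the same class, another class or none. The Krt86 domain was 95.02% identical over 1304 bases to a stretch of Krt81 that reaches into the Krt81 domain, and they share an identical run of 238 bases, in opposite orientation, with coding bases in capitals. At Krt81 this run lay outside any domain.
Krt86, chr15:101476839-101477076, plus strand, also at chr15:101460521-101460758 in Krt81: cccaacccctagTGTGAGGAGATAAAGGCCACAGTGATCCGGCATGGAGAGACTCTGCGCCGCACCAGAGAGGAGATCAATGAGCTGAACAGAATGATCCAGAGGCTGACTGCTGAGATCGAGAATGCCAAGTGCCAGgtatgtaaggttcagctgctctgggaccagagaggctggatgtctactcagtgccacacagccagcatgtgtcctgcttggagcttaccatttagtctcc

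Part of the Krt34 domain was 94.1% identical over 455 bases to Krt33b, which carried no domain, and the Krtap31-2 domain was 89.2% identical over 779 bases to Krtap31-1, which had none either. Krt8-ps was 99.2% identical over 388 bases to the Krt8 domain, and both were intermediate. By contrast the domains on Krtap16-1 and Krt73 had no match outside repeats in the type I and type II keratin clusters. The Krtap clusters of other chromosomes were not searched, so copies there remain unknown. Of the 12 residual domains of chromosome 11, the domains on Krtap16-1, Krt36, Krt13, Krt15, Krt17 and Krt42 had 100% unique positions. Of these 6, all but Krtap16-1 aligned in part to other keratin copies, over 12.1% of the Krt42 domain to 31.8% of the Krt15 domain.

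Genes that act with keratins were looked up as lists. Of 19 relatives of the intermediate filament family and their linkers, 8 carried a domain (42.1%), against the 23.4% of other protein-coding genes. Of their 9 domains 6 were residual and 3 intermediate, against 4.54% residual over all other domains. That reference is not of like position, since 6.86% of those domains lie on an exon of a coding gene. Among other exon domains, 53.3% of 353 on chromosome 11 and 10.1% of 99 on chromosome 15 were residual. Such shares were not computed for the other chromosomes of this list. Nes, the filament protein nestin of neural progenitors, was residual over 51.7% of its gene, and Prph, peripherin of peripheral neurons, over 44.1%. The neurofilament gene Nefh was residual over 25.8%, and Dsp, desmoplakin that anchors keratin at desmosomes, over 13.3%. Of 3 list members with a domain on chromosome 15, Prph and Eppk1, epiplakin that binds keratin, were residual, and Plec, the linker plectin, was intermediate over 14.1%. Bfsp2, a lens filament gene, was intermediate over 1800 bases, and Nefm, a neurofilament gene, had an intermediate and a residual domain.

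The epidermal differentiation complex, the chromosome 3 array of cornified envelope genes, carried domains on 5 of 57 genes (8.77%), a lower share than other protein-coding genes. Gene length was not taken into account for this or the other lists. Flg2, a filaggrin relative, was in a slow domain over 84.6% of its length, Kprp in an intermediate one over 70.1%, and Hrnr, hornerin, in a fast one over 26.05%. Sprr2a2, a small proline-rich envelope protein gene, had 3 domains, slow and residual, which together held 16.2% of it and included both residual domains of this list. Pglyrp3, an antibacterial peptidoglycan recognition protein gene, was intermediate over 33.5%. Of 24 desmosome and cornified envelope genes 4 had a domain (16.7%), against 23.4% of other protein-coding genes. Their 6 domains were 1 fast, 3 intermediate, 1 slow and 1 residual. The residual one lay on Evpl, envoplakin, over 29.4% of the gene on chromosome 11. Abca12 had intermediate domains, Dsc2 a slow one, and Dsg2 a fast and an intermediate one. Of 20 regulators of epidermis and hair 6 had a domain (30%), against the same 23.4%. Of their 8 domains 6 were intermediate, which is the class of 71.5% of all other domains. Lhx2, a hair follicle stem cell factor, had both an intermediate and a residual domain, and Shh a fast domain over 48.7% of the gene. In none of these 4 lists were all domains of 1 class.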

How the data were processed

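The members and gene lists were chosen with earlier results of these data known. The 216 samples are sequencing runs of H3K9me3, HP1β and input libraries; the authors' deposited table of H3K9me3 domains was the file used. It has 43039 rows of chromosome, start, end and a decay class in words, on a grid of 300 bp, for all libraries together, and holds 0 columns of sample values. The submitters' processing notes name mm10 among the builds and list bedtools, deepTools, SAMtools 1.1 and Bowtie2 2.3.4.1. Domain calling, spike-in scaling, treatment of reads with several matches and class limits are not stated in the labels or files used here. Without counts or libraries in the table, no test, error or depth could be had.

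Starts were taken as 0-based and are printed 1-based on mm10 (GRCm38). No domain ran past a chromosome end (0 found). Domains were overlapped with GENCODE vM21 genes in Python 3.11.15 with pandas 2.3.3, checked on simulated intervals. Members under 1 Mb apart formed a cluster, named where it held 3 or more. Sequence features came from GRCm38.p6, with uniqueness of words of 31 bases sampled every 100 bp, and copies from BLAST 2.17.0 with soft-masked bases hidden. Copies were sought only in the type I and type II keratin clusters and their flanks. The naming rule took every member with a domain, plus Krt5, Krt10 and Krt19; other members and list genes were named after their values were seen. Overlap rule, joining, spans, biotype and comparison set were varied.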

Additional observations from a re-analysis of the deposited data

How the results depend on the processing

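Values here are percentage-point differences in share, domains on members minus other domains of the same chromosome; the pooled values weight each chromosome by its member domains. Of 77 recalculations of 7 values, 61 moved by less than the 95% Wilson half-width of the member share, which covers counting error only. Some of these 61 could not move. Leaving out Krtcap and Krtdap genes dropped no domain, nor did keeping only protein-coding members on chromosomes 11 and 15. Stricter overlap rules could not change the intermediate share of 0% on chromosome 11. Counting the whole cluster span in place of gene bodies brought the residual difference on chromosome 11 to 32.2 points, as compared with 70.6, the intermediate one to -22.9, as compared with -38.3, and the pooled residual one to 13.5, as compared with 43.8. The other sets below were chosen after seeing the data. Against other exon domains these 3 differences were 39.0, -20.4 and 23.5, against other promoter domains 33.4, -19.6 and 19.5, against exon domains with little repeat 21.8, -13.2 and 11.6, and against promoter domains with little repeat 15.5, -11.1 and 7.77. In the last set the pooled intermediate difference changed sign, to 3.22, as compared with -19.5; the cause was not tested. The intermediate difference on chromosome 15, -1.59 as reported, lay between -9.71 and 17.2 and was above 0 in 7 settings, at 16.6 by covered length, 12.4 within 5 Mb, 0.46 against gene-body, 3.03 against exon and 9.09 against promoter domains, and 2.73 and 17.2 against exon and promoter domains with little repeat; it thus has no stable direction. The Krtap clusters outside chromosome 11 gave no value, having 0 domains on Krtap genes. The share of members with a domain exceeded that of all other genes by 4.88 points, but fell below it by 1.26 points among protein-coding genes. No paired analysis was possible because the table has no values per library. A class without an error and clusters of 13 and 11 neighbouring domains limit every share.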
